A study of Mus musculus with 4 samples.

Results

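Mdm2, Mdm4 and a group of p53 target genes that slow the cell cycle or aid DNA repair were followed in B16F10 cells, a pigmented mouse melanoma line that grows in culture and forms tumours in mice. The members were chosen by symbol, as the p53 gene Trp53 itself, its negative regulators Mdm2 and Mdm4, and the targets Ccng1, Gadd45a, Trp53inp1, Phlda3, Zmat3, Ddb2 and Sesn1. Of these 10 genes, 9 were measured among the 17097 named genes compared, through 19 probe sets that were each annotated to exactly 1 gene. Trp53 was not analysed here, because the probe annotation used named no probe set for it. Each gene was read at its main probe set, the one that was brightest on average across the arrays.

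Cells of 2 samples received MilliQ water (0 µM plumbagin, control 1 and control 2). Cells of the other 2 samples received 2 µM plumbagin, a naphthoquinone from plants, for 24 h (plumbagin 1 and plumbagin 2). All 4 samples came from 1 cell line, and the labels do not state whether the cultures of each group were separate. A p-value here therefore measures the spread between these samples, which may be technical. An array gives a log2 expression value per probe set, so a difference of 1 is a 2-fold change.

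The transcription factor p53 is kept at a low level in unstressed cells by MDM2, a ubiquitin ligase that marks it for degradation, and by MDM4, a relative of MDM2 that blocks its activation domain. DNA damage and other stresses free p53 from both proteins. It then switches on genes that arrest growth, repair DNA or kill the cell, and it also switches on Mdm2, which closes a feedback loop. Because p53 is controlled largely through its protein, the transcripts of its targets are the usual RNA readout of its activity.

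The melanocyte label was checked first. All 8 melanocyte markers (Mitf, Pmel, Tyr, Tyrp1, Dct, Mlana, Sox10 and Slc45a2) lay above the background level of 5.05, below which 95% of 41 odorant receptor genes lay, and 0 of 5 fibroblast, 0 of 4 keratinocyte and 0 of 4 macrophage markers did. Of 4 T cell markers only Cd3e and of 4 endothelial markers only Kdr lay above it. The array of plumbagin 1 stood apart from the rest. The mean of its hybridization spike-in controls was 9.58, where the other arrays had 8.46 to 8.77, and its upper quartile was 6.26 against 6.34 to 6.36. The median of the 8637 genes above background was -0.11 between plumbagin 1 and control 1 and within 0.01 of 0 between plumbagin 2 and control 2. The part of that array in the differences below was not tested, and values without it are given beside them.

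The 250 bases before the transcription start were read for the members in the RefSeq table of assembly GRCm38.p6, where 7 of the 10 genes matched, with 9 start sites. They were searched for the p53 consensus half-site, the decamer that p53 dimers recognise, whose pattern reads the same on both strands. The decamer was present upstream of 5 of these 9 start sites (55.6%), against 7.13% of 32851 start sites of all genes. The members were chosen as p53, its regulators and its targets, so this contrast may follow from the choice and is no result of the arrays. No member had a pair of decamers with at most 13 bases between them, the layout of a complete p53 element, which 0.0639% of all windows held. A match describes these letters alone, and p53 binding was not measured. Bases after the start were not searched, so a p53 site there would be missed. No mismatch to the decamer was allowed, so a site that departs from it would be missed too. The 5 matching stretches are shown because they hold the recognition letters of the factor that the group is named for, each as 60 bases, 5′ to 3′ on the gene's strand, with the decamer in capitals.
Mdm2, chr10:117710910-117710969, minus strand: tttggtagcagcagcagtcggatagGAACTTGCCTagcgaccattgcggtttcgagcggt
Ccng1, chr11:40755437-40755496, minus strand: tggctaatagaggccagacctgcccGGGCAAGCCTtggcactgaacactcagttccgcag
Gadd45a, chr6:67037413-67037472, minus strand: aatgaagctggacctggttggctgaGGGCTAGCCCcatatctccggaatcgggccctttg
Sesn1, chr10:41887241-41887300, plus strand: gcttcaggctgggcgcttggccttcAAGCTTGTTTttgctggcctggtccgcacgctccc
Trp53, chr11:69580259-69580318, plus strand: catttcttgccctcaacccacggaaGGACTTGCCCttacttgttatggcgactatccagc
The decamer began 40 bases before the start of Gadd45a and 75 bases before that of Trp53. It began 186 bases before the start of Mdm2, 185 before that of Ccng1 and 173 before 1 of the 2 starts of Sesn1. Neither of the 2 starts of Mdm4 and not the start of Phlda3 had a match in this window.

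Plumbagin was compared with the control over all 4 arrays and within each replicate number of the sample titles. Gadd45a, which restrains growth after stress, had the lowest mean difference of the group, and its arrays still overlapped between the treatments. The negative regulators Mdm2 and Mdm4 differed by 0.10 or less on the log2 scale at their main probe sets. Trp53inp1, Sesn1 and Ccng1 had higher means with plumbagin and the other 6 genes had lower means (66.7% of the 9). Means were lower in 65.1% of the genes above background and in 55.2% of all genes. None of the 9 genes passed the test, and none of the 17097 genes did (limma, 0 called, 0% of those tested). At an unadjusted p under 0.05, 0 of the 9 and 169 of all genes (0.988%) were counted. The median difference of the 9 genes was -0.10, against -0.051 over the genes above background and -0.012 over all genes, and it was -0.036 without plumbagin 1.

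In Mdm2 and Ddb2, 2 of the 9 members, each treated array lay below each control, as it did in 15.2% of all genes. No member had both plumbagin arrays above both controls, where 10.2% of all genes did. Of the 8637 genes above background, 1580 had both treated arrays below and 489 had both above. With groups of 2 an exact permutation test of a single gene cannot fall below p = 0.33, so no such test could separate the groups. In 4 of the 9 genes the gap between the controls was larger than the difference between the treatments, and this held for 64.9% of all genes.

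**Figure D1:**
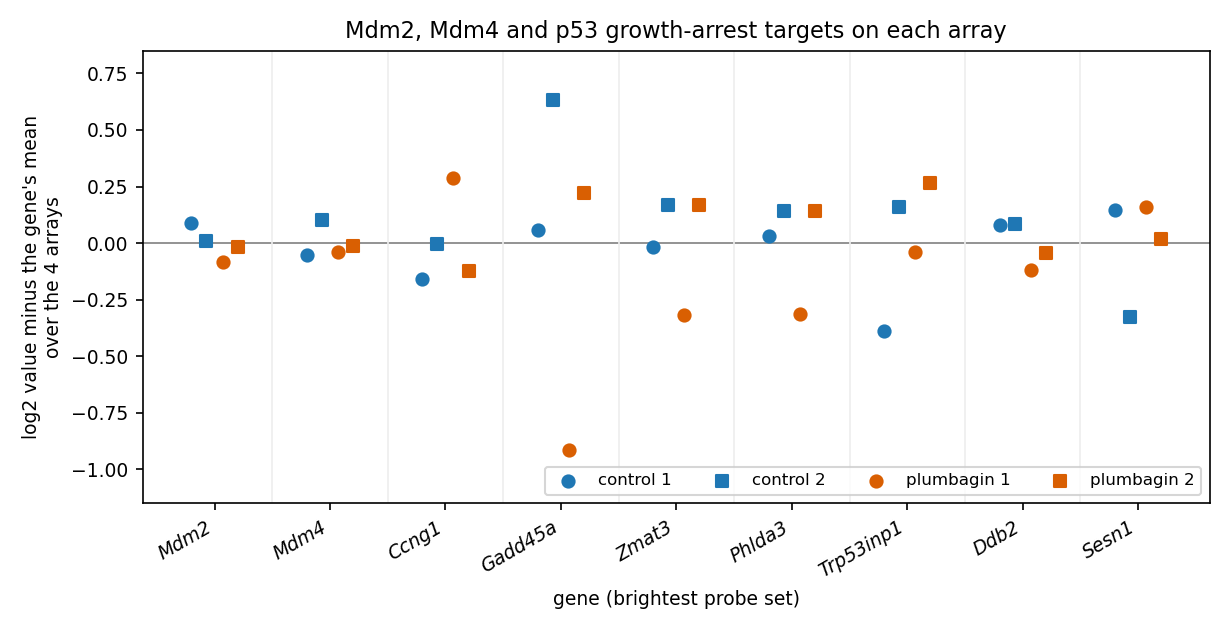
Log2 value of each gene's main probe set on each array, minus the gene's mean over the 4 arrays; circles are samples numbered 1, squares those numbered 2, blue is control and orange is plumbagin. Gadd45a spreads most widely, and its plumbagin 1 array lies lowest of all points.

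Mdm2, the ubiquitin ligase of p53 and its feedback target, read 7.54 in control 1 and 7.46 in control 2, against 7.37 in plumbagin 1 and 7.44 in plumbagin 2 (log2). The plumbagin arrays were lower than both controls, by a narrow margin. The mean difference was -0.10 ± 0.08 (SE, n = 2 per group, limma adjusted p = 1), which is 1.07-fold lower. Its 95% interval ran from 1.25-fold lower to 1.09-fold higher. Between plumbagin 1 and control 1 it differed by -0.17, which was also the median of all genes within 0.5 of its level (-0.17). Between plumbagin 2 and control 2 it differed by -0.024, and without plumbagin 1 its mean difference was -0.065. Its other probe set read 7.45 and 7.05 in the controls and 6.66 and 7.20 in plumbagin 1 and 2. There plumbagin 1 was the low array and plumbagin 2 lay between the controls, so the groups overlapped, with a difference of -0.32. The 2 probe sets thus had the same sign over the 4 arrays, and in the arrays numbered 2 their signs differed, at -0.024 and 0.15.

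Mdm4, the relative of MDM2 that masks the activation domain of p53, read 7.04 and 7.20 in the controls, against 7.06 and 7.08 in plumbagin 1 and 2. Both plumbagin arrays lay between the controls. The difference was -0.05 ± 0.09 (SE, limma adjusted p = 1), with a 95% interval from -0.30 to 0.20, and its sign turned with a further quantile normalization (0.012) and after cyclic loess (0.018). Without plumbagin 1 it was -0.036. The other 3 probe sets of Mdm4 had means below the background level, and their differences lay between -0.08 and 0.07.

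Gadd45a encodes a small protein that binds PCNA and the mitotic kinase CDK1 and is induced by growth arrest and DNA damage, through p53 and through other stress factors. It read 8.51 in control 1 and 9.09 in control 2, against 7.54 in plumbagin 1 and 8.67 in plumbagin 2. Plumbagin 1 was the lowest array by far, while plumbagin 2 lay between the controls. The mean difference was -0.69 ± 0.44 (SE, n = 2 per group, limma adjusted p = 1), or 1.62-fold lower, with a 95% interval from -1.87 to 0.49. Only 5 of the 17097 genes had a lower mean difference. Within number 1 it was lower by 1.96-fold (-0.97), the 12th lowest value of all genes, and within number 2 by 1.33-fold (-0.41), the 30th lowest. The controls themselves differed by -0.57, control 1 minus control 2. The difference was -0.13 without plumbagin 1 and -1.26 without plumbagin 2. Gadd45a had 1 probe set, so no other set could be compared with it. In bulk RNA, less transcript in every cell and fewer cells that express a gene cannot be told apart.

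Ccng1 encodes cyclin G1, a p53 target that brings a phosphatase to MDM2. At its main probe set it read 9.37 and 9.52 in the controls and 9.81 and 9.40 in plumbagin 1 and 2. Plumbagin 1 was the highest array and plumbagin 2 lay between the controls. The difference was 0.16 ± 0.17 (SE), 0.44 within number 1 and -0.12 within number 2, and it was -0.041 without plumbagin 1. Its other 2 probe sets, both above background, had lower means with plumbagin, at -0.14 and -0.09. Within number 1 the second brightest set read 8.66 in the control and 8.24 with plumbagin, a difference of -0.43, opposite in sign to the main set. The average over its 3 probe sets differed by -0.024, so the direction of Ccng1 depended on the probe set read.

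Zmat3, also called Wig-1, encodes an RNA-binding zinc finger protein induced by p53. Its values were 8.11 and 8.30 in the controls and 7.81 and 8.30 in plumbagin 1 and 2. Phlda3, a p53 target that restrains AKT at the membrane, read 8.93 and 9.04 in the controls and 8.58 and 9.04 in plumbagin 1 and 2. In both genes plumbagin 1 was the low array and plumbagin 2 nearly equalled control 2. Zmat3 differed by -0.15 ± 0.19 (SE), -0.30 within number 1 and -0.0022 within number 2. Phlda3 differed by -0.17 ± 0.18 (SE), -0.35 within number 1 and 0.0032 within number 2. Without plumbagin 1 both means were higher with plumbagin, at 0.092 for Zmat3 and 0.057 for Phlda3. Genes within 0.5 of their levels had a median of -0.15 and -0.11 within number 1.

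Trp53inp1 encodes a nuclear stress protein that works with kinases on p53 and also takes part in autophagy. It read 7.40 and 7.95 in the controls and 7.75 and 8.05 in plumbagin 1 and 2. Control 1 was the low array, and plumbagin 1 lay between the controls. The difference was 0.23 ± 0.23 (SE, limma adjusted p = 1), higher by 1.27-fold within number 1 (0.35) and by 1.08-fold within number 2 (0.11). Without control 1 it was -0.047, without control 2 it was 0.50 and without plumbagin 1 it was 0.38. Its other probe set was below background and differed by -0.0051.

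Ddb2 encodes a subunit of the complex that finds ultraviolet damage for nucleotide excision repair. It was the 1 measured member whose main probe set lay below the background level, with values of 4.75 and 4.76 in the controls and 4.55 and 4.63 in plumbagin 1 and 2. Both plumbagin arrays were below both controls, by -0.16 ± 0.08 (SE, limma adjusted p = 1), with -0.20 and -0.13 within numbers 1 and 2, and -0.13 without plumbagin 1. Its second probe set, also below background, overlapped between the groups and differed by -0.019.

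Sesn1 encodes sestrin 1, which links p53 to lower mTORC1 signalling and to the peroxide defence. Its values were 6.26 and 5.78 in the controls and 6.27 and 6.13 in plumbagin 1 and 2. Control 2 was the low array, and plumbagin 2 lay between the controls. The difference was 0.18 ± 0.18 (SE, limma adjusted p = 1), 0.011 within number 1 and 0.34 within number 2. It was 0.41 without control 1, -0.059 without control 2 and 0.11 without plumbagin 1. All 3 probe sets of Sesn1 had higher means with plumbagin, by 0.28 and 0.13 in the other sets, and in all 3 control 2 was the lowest array. The gap between the controls was 0.47 at the main set and 0.54 and 0.70 at the others, wider than the difference with plumbagin each time.

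**Figure D2:**
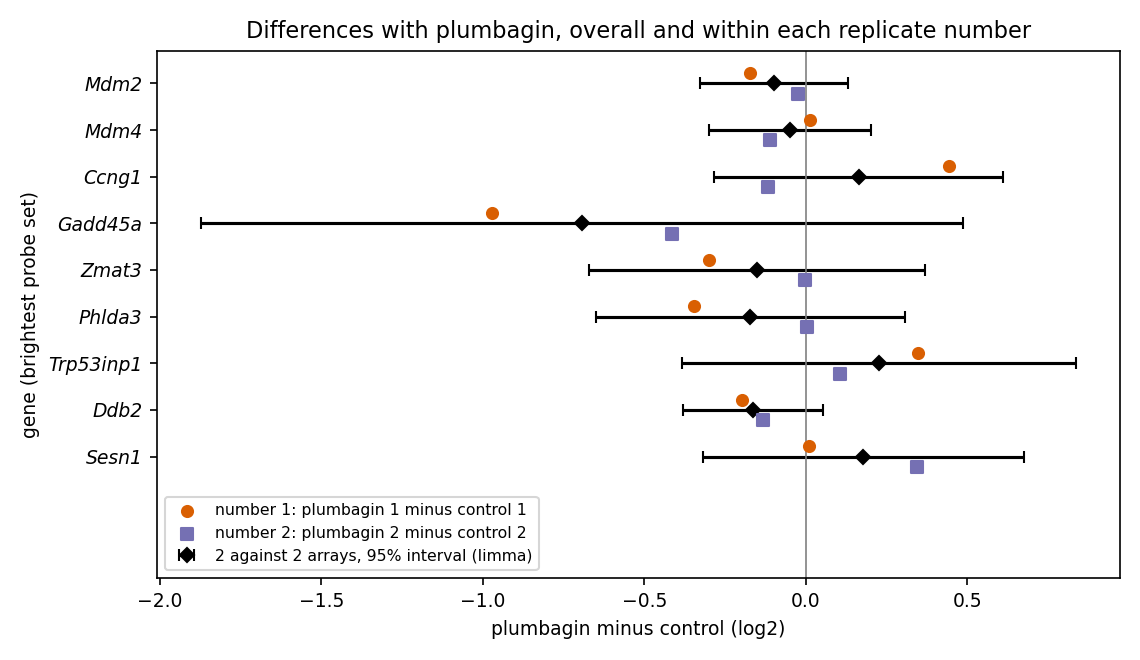
Difference between plumbagin and control on the log2 scale for each gene's main probe set: black diamonds with bars are the limma estimate and its 95% interval, orange circles plumbagin 1 minus control 1, violet squares plumbagin 2 minus control 2. All 9 intervals include 0, and the 2 replicate numbers gave the same sign in 6 of the 9 genes.

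Set side by side, the replicate numbers gave the same sign in 6 of the 9 genes, lower in both for Mdm2, Gadd45a, Zmat3 and Ddb2 and higher in both for Trp53inp1 and Sesn1. Zmat3 within number 2 (-0.0022) and Sesn1 within number 1 (0.011) lay close to 0. So did Phlda3 within number 2 (0.0032) and Mdm4 within number 1 (0.0135), which counted as differing in sign. Over all genes 50.6% had the same sign in both numbers. Among genes above background 53.6% did, with 36.8% lower in both and 16.9% higher in both. Within number 1 the median of the members was -0.17 with 5 of 9 lower, and within number 2 it was -0.024 with 6 of 9 lower. Of the genes above background, 69.1% were lower within number 1 and 50.7% within number 2. Among all 19 probe sets of the members, 12 had lower and 7 higher means with plumbagin, and 12 lay above background. Probe sets of a gene disagreed in sign for Ccng1, Mdm4 and Trp53inp1. Disagreement among sets above background occurred in Ccng1 alone.

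**Figure D3:**
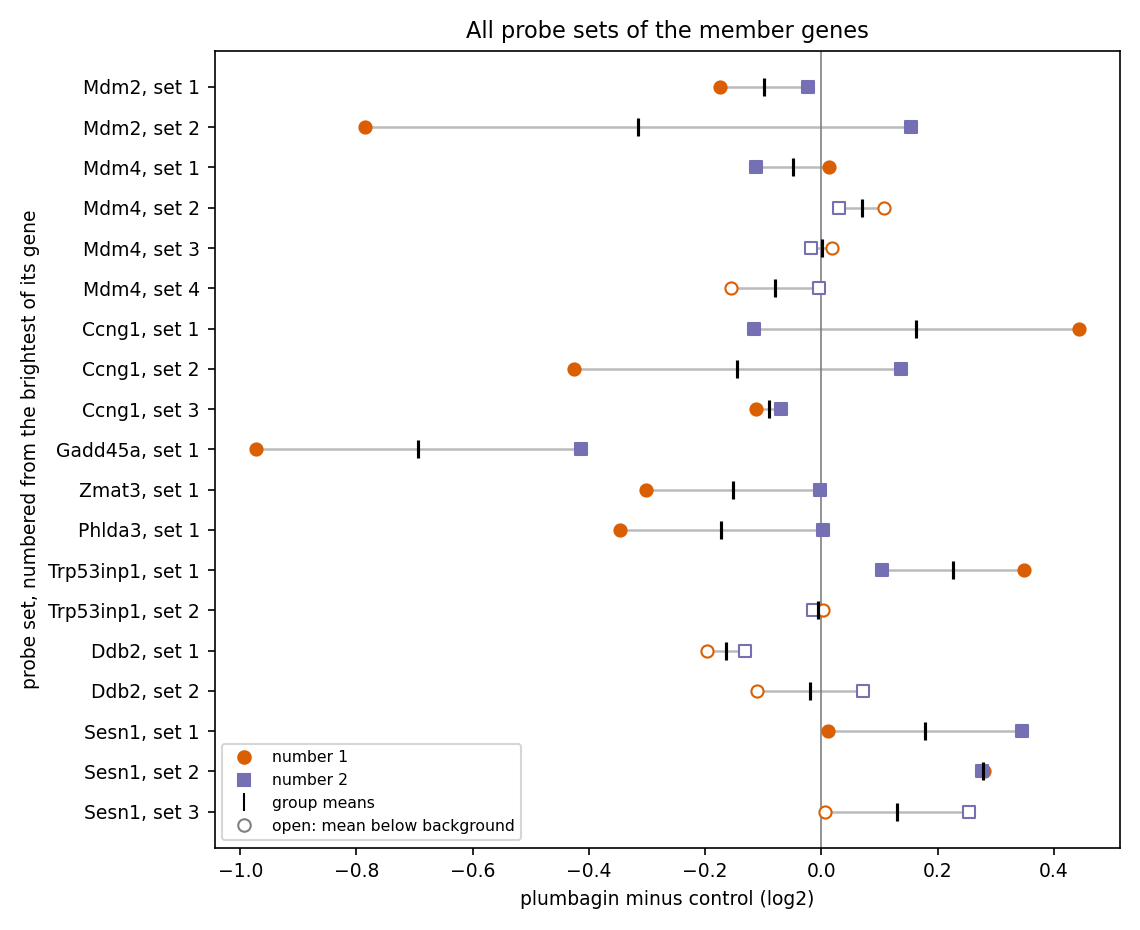
Difference with plumbagin (log2) at each of the 19 probe sets, numbered within a gene from the brightest: orange circles for number 1, violet squares for number 2, black ticks for the difference of group means, open symbols for sets with a mean below background. The sets of Sesn1 lie to the right of 0 and those of Ccng1 lie on both sides.

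Other genes that p53 can switch on were taken as a list of 39, of which 34 were measured and 23 lay above background. With plumbagin 22 had lower and 12 higher means, and 0 passed the limma test, also at an unadjusted p under 0.05. Means were lower in 69.6% of the 23 above background, against 65.1% of all genes above background, and in 64.7% of the 34, against 55.2% of all genes. Their median difference was -0.054, and it was -0.070 for those above background, where all genes above background had -0.051. Both plumbagin arrays lay below both controls in 4 of the 34 and above them in 2, where 15.2% and 10.2% of all genes did so. Among the 23 above background the counts were 3 and 0, against 1580 and 489 of the 8637 genes above background. The 4 genes with the smallest p were Ppm1d, Prkab1, Psrc1 and Eda2r. Ppm1d, the WIP1 phosphatase that switches p53 off again, read 6.76 and 6.88 in the controls and 6.29 and 6.68 in plumbagin 1 and 2. Both treated arrays were the lower ones, by -0.33 ± 0.16 (SE, limma adjusted p = 1), with -0.14 without plumbagin 1, while its other probe set overlapped and differed by -0.07. Prkab1, a subunit of the energy sensor AMPK, differed by -0.17 ± 0.12 and Psrc1, a spindle protein, by -0.11 ± 0.08. Without plumbagin 1 these differences were -0.047 and -0.15. Eda2r, a death receptor relative, differed by 0.10 ± 0.09 at a level below background.

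Cdkn1a encodes p21, the CDK inhibitor through which p53 stops cells in G1. Its values were 8.89 and 7.97 in the controls and 8.87 and 7.76 in plumbagin 1 and 2. Both samples numbered 1 were high and both numbered 2 were low, whatever the treatment. The difference was -0.12 ± 0.49 (SE, limma adjusted p = 1), against a gap of 0.92 between the controls and of 1.11 between the plumbagin arrays. It was -0.67 without plumbagin 1, which leaves 1 sample numbered 1. Within number 1 Cdkn1a differed by -0.023 and within number 2 by -0.21. Its 95% interval, from 2.73-fold lower to 2.32-fold higher, came from the fit without the replicate number and was wide. Its second probe set had the same order of arrays within each treatment, with a gap of 0.93 between the controls. There the differences were 0.0083 within number 1 and -0.31 within number 2.

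Of 33 genes that act on p53 or beside it, 29 were measured and 24 lay above background. Means were lower in 16 and higher in 13, with a median of -0.024, and 0 passed the limma test, also at an unadjusted p under 0.05. Both plumbagin arrays lay above both controls in 6 of the 29 and below them in 5, against 10.2% and 15.2% of all genes. Among the 24 above background the counts were 4 and 5, against 489 and 1580 of the 8637 genes above background. Atm, Atr, Wrap53 and Prkdc were the 4 genes with the smallest p and are named for that reason alone. The kinases Atm and Atr signal DNA breaks and stalled forks to p53 and MDM2, and Prkdc encodes the catalytic subunit of the kinase DNA-PK. The checkpoint kinases Chek1 and Chek2 of the same list did not share 1 direction at their main probe sets. Chek2 differed by -0.10, with both plumbagin arrays below both controls. Chek1 differed by 0.15, with 0.47 within number 1 and -0.17 within number 2. This was the brightest of 5 probe sets of Chek1, and values of its other sets are not given here. Atm read 6.79 and 6.94 in the controls and 7.49 and 7.08 in plumbagin 1 and 2. Atr read 6.001 and 6.43 in the controls and 6.80 and 6.54 with plumbagin. Both genes had their highest value in plumbagin 1 and lay above both controls in plumbagin 2 as well. Atm differed by 0.42 ± 0.16 (SE, limma unadjusted p = 0.060, adjusted p = 1) and Atr by 0.46 ± 0.19 (SE, limma unadjusted p = 0.064, adjusted p = 1). Without plumbagin 1 they differed by 0.22 and 0.33. The second set of Atm differed by 0.40 with the groups apart. The other sets of Atr, below background, differed by 0.48 and 0.29. Prkdc differed by 0.19 ± 0.11 (0.10 without plumbagin 1). Wrap53, a gene beside Trp53 whose protein serves telomerase, differed by -0.37 ± 0.16 (-0.29 without plumbagin 1). Its mean level of 5.16 was close to the background level of 5.05, and it read 4.90 in plumbagin 1. The other probe set of Wrap53, below background, differed by -0.10. Cdkn2a, which encodes the MDM2 inhibitor ARF and the CDK inhibitor p16, lay below background on every array, between 2.82 and 2.99.

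**Figure D4:**
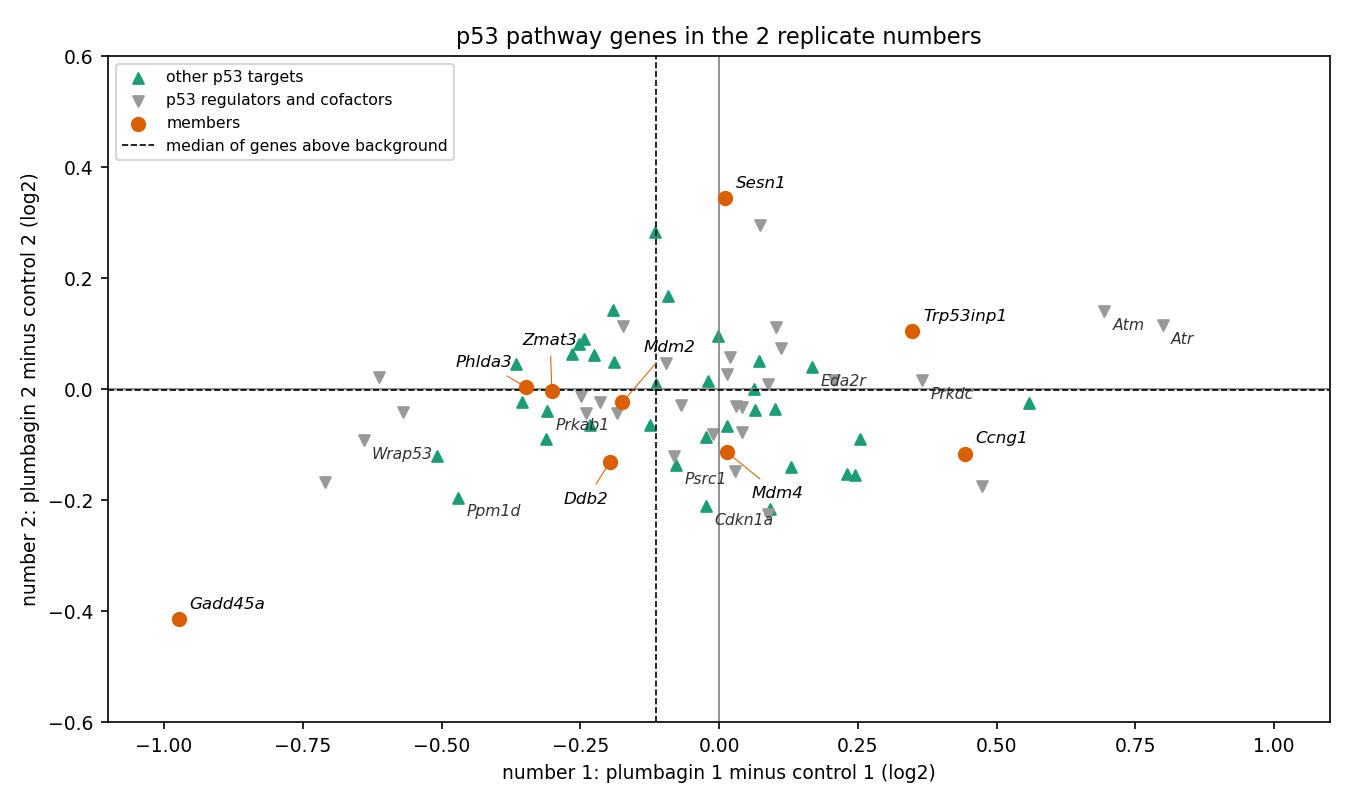
Difference with plumbagin (log2) within number 1 (horizontal) and within number 2 (vertical) for the 9 members (orange circles), 34 other p53 targets (green triangles) and 29 regulators (grey triangles); dashed lines mark the medians of genes above background. Gadd45a lies alone at the lower left, at -0.97 and -0.41, and Atm and Atr lie at the far right.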

How the data were processed

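Total RNA was labelled by in vitro transcription from the 3′ end and hybridised to Affymetrix mouse arrays, 1 array for each sample (per the labels' protocols). The authors deposited log2 expression values. Per the submitters' processing notes they used RMA, Transcriptome Analysis Console and Affymetrix Expression Console, whose versions are not given. RMA makes the distributions of arrays alike, which removes a change shared by most genes, and it compresses weak signals. Probe-level intensities were not used here.

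Of 45141 probe sets, 104 were controls, 28898 carried 1 gene symbol in the platform annotation, 551 several, and 15588 were unnamed here. Symbols were updated through the Entrez number for 28689 of them (RefSeq, GRCm38.p6). Differences were fitted with limma 3.58.1 in R 4.3.3 (lmFit and eBayes, no covariate, no filter on dim genes), two-sided, with Benjamini-Hochberg adjustment over 17097 genes and a threshold of 0.05. The code was tested on simulated data. The precision is limited by 2 arrays per group.

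The members and lists were chosen with earlier results of these data known. The genes named from the other targets and the regulators were the 4 with the smallest p in each list, plus Cdkn1a and Cdkn2a for their role. Chek1 and Chek2 were named outside this rule, as checkpoint kinases of the regulator list. Alternatives were the averaging of a gene's probe sets, single probe sets, 2 dimness filters, 3 normalizations, 2 variance models, a block for the replicate number, and the omission of each array in turn, which takes the spread of the single array left in a group from the other group.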

Additional observations from a re-analysis of the deposited data

How the results depend on the processing

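Under all 14 alternatives 0 genes and 0 members passed the limma test, with 24 to 973 genes at an unadjusted p under 0.05 (169 in the main comparison). The median of the 9 members (-0.10) was -0.035 after a further quantile normalization, -0.031 after cyclic loess, and from -0.13 to -0.036 with 1 array left out. Mdm2, Gadd45a and Ddb2 kept their direction under every alternative that gave them a value. Ddb2 had none under the 2 filters on dim genes. Many of the alternatives could not turn a sign. Single probe sets, the filters, the variance models and the block leave the difference at a main probe set as it was. Averaging leaves Gadd45a as it was, with its 1 probe set. Leaving out 1 array could not turn Mdm2 or Ddb2, whose treated arrays both lay below both controls. Mdm4 turned to 0.012 with quantile normalization, to 0.018 with cyclic loess, and ranged from -0.13 to 0.027 with 1 array left out. Ccng1 turned to -0.024 with its probe sets averaged. With 1 array left out Ccng1 ranged from -0.041 to 0.37, Trp53inp1 from -0.047 to 0.50, Phlda3 from -0.40 to 0.057, Zmat3 from -0.40 to 0.092, Sesn1 from -0.059 to 0.41 and Gadd45a from -1.26 to -0.13. Where a direction turned, the cause was not tested. The samples share only a number in their titles. Samples with the same number deviated together (r = 0.54 across 17097 genes, which are not independent replicates). With the replicate number as a block, 0 genes and 0 members were called, and the count at an unadjusted p under 0.05 was 434. Gadd45a then differed by -0.69 ± 0.16 (SE, limma adjusted p = 0.919), where limma draws the SE toward the spread of all genes. That adjusted p was the smallest of any gene in this fit, and Trp53inp1, Phlda3, Zmat3, Ddb2 and Sesn1 had the same value.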
